A study of Homo sapiens with 6 samples.

Results

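The class 3 semaphorins are secreted guidance proteins, and the neuropilins are the cell surface receptors that bind them. ATAC-seq peaks were collected for all 7 class 3 semaphorin genes (SEMA3A, SEMA3B, SEMA3C, SEMA3D, SEMA3E, SEMA3F and SEMA3G) and both neuropilin genes (NRP1 and NRP2). A peak was assigned to a gene when its centre lay in the GENCODE release 44 body of that gene, or when it lay outside every protein-coding gene and the 5' end of that gene was the nearest protein-coding one. By this rule, 240 of 152800 peaks belonged to the 9 genes.

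The peaks came from A375 cells, an established human melanoma line, measured as 3 empty vector libraries and 3 HMGB2OE libraries. HMGB2OE cells overexpress HMGB2, a chromatin-binding high-mobility group protein, from a lentivirally integrated copy, and the control cells carry the vector without it. The comparison asks whether more HMGB2 changes which chromatin is accessible to the Tn5 transposase. The study calls the libraries of a condition technical replicates of an experiment that was not repeated, so p-values here measure only the spread between these libraries and not between independently made lines.

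Class 3 semaphorins are released by the signalling cell and steer axons, neural crest cells and vessels, mostly by repulsion. Neuropilins bind them but carry hardly any signalling domain of their own, so the signal passes through a partner of the plexin family, whose intracellular part acts on small GTPases and the cytoskeleton. NRP1 and NRP2 also bind members of the vascular endothelial growth factor (VEGF) family, and SEMA3B and SEMA3F are known as antagonists of tumour growth and spread. SEMA3E differs from the rest in that it can bind plexin D1 without a neuropilin.

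Of the 240 peaks, 239 had enough reads to be tested by edgeR's quasi-likelihood test, which was fitted on the whole table. The call asked for a fold change of 1.5 or more together with an adjusted p-value (Benjamini-Hochberg, over all tested peaks) under 0.05. By that rule 7 peaks were called, all of them away from promoters, in SEMA3A, SEMA3C and NRP1. The sequences of 4 of them are shown because their changes were the largest in each direction or held in every alternative analysis. Each is the central 300 bases of the 502 bp peak, read from the plus strand of hg38. Capitals mark short words typical of transcription factor sites: AP-1 (TGACTCA or TGAGTCA), SOX (ACAAAG), TEAD (GGAATGT), TFAP2 (GCCNNNGGC), each also in reverse complement.
NRP1 chr10:33655539-33655838: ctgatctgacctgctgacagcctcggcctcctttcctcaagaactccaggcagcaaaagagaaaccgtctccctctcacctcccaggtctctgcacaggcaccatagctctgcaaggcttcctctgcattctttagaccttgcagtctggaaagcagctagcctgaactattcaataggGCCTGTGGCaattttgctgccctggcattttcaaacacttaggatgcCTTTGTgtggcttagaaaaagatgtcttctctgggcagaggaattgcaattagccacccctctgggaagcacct
SEMA3C chr7:81112850-81113149: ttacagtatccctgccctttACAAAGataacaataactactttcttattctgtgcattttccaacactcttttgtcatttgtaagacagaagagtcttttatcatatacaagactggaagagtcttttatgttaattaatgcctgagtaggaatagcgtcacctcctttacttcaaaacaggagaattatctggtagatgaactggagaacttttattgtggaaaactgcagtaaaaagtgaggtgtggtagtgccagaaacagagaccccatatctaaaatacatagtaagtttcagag
SEMA3C chr7:80781590-80781889: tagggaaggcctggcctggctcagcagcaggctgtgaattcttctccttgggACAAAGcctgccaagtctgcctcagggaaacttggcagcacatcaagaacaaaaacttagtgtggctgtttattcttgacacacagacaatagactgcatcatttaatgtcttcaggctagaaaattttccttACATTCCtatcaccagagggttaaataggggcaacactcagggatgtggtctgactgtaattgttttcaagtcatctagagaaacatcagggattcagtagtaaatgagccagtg
SEMA3A chr7:84187838-84188137: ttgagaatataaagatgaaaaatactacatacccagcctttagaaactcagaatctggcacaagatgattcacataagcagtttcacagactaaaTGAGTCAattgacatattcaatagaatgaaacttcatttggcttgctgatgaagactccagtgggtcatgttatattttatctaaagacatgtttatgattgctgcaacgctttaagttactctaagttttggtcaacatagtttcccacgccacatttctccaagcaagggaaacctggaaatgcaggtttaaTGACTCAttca
The NRP1 sequence holds a SOX and a TFAP2 word, and more HMGB2OE than empty vector fragments fell there. The first SEMA3C sequence, whose peak was lower in HMGB2OE libraries, holds a SOX word, and the second, whose peak was higher, holds a SOX and a TEAD word. The SEMA3A sequence holds 2 AP-1 words and its peak was lower. Over the 9 genes, an AP-1 word was present in 30.5% of tested peaks against 28.0% of all tested peaks, a SOX word in 47.3% against 37.3%, a TEAD word in 13.4% against 8.93% and a TFAP2 word in 13.4% against 19.4%. The MITF word TCACGTG, also searched on both strands, was present in 1 of 239 peaks (0.418%) against 2.78% of all. Outside promoters the shares were 31.0% against 31.7% for AP-1 and 49.3% against 40.8% for SOX. There they were 14.3% against 9.7% for TEAD and 11.8% against 14.7% for TFAP2. Promoters were defined differently for member peaks and for all peaks, so the peaks outside them are not fully matched. The 239 peaks had a median GC content of 40.4%, against 46.2% over all tested peaks. The part of GC content in these shares was not tested. The AP-1 spellings are reverse complements of each other, and no word contains another. A word in a peak is a description of its letters and not a bound site.

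Between 26910189 and 45645294 reads per library fell in peaks. The 6 libraries separated by condition along the first principal component, which held 35.7% of the variance. Of 8 melanocyte lineage genes, 6 had a promoter peak, including MITF, SOX10 and PMEL, whereas TYR and DCT had none. Promoter peaks were also present at 1 of 3 endothelial, 3 of 3 undifferentiated melanoma and 3 of 3 epithelial marker genes, and an accessible promoter does not show expression. Reads over HMGB2 coding sequence, which the integrated copy also gives, rose from a mean normalized count of 32.0 to 98.4 in the stronger of 2 such peaks (log2 fold change 1.67, standard error (SE) 0.249, edgeR adjusted p = 0.000113), while the peak at the HMGB2 start site stood at 1986 and 1973.

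The 7 called peaks made up 2.93% of the 239 tested, against 3.31% of all 150117 tested peaks. Higher peaks numbered 3 (1.26%, against 1.87% of all) and lower peaks 4 (1.67%, against 1.44%). Both shares lay near those over all peaks. With no fold limit, 16 peaks (6.69%, against 6.47% of all) had an adjusted p-value under 0.05 by edgeR's quasi-likelihood test, 7 of them higher (3.44% of all peaks were) and 9 lower (3.03% of all). The libraries of the conditions did not overlap at 63 peaks (26.4%, against 25.1% of all). Of these, 23 were higher in HMGB2OE libraries (12.6% of all peaks were) and 40 lower (12.5% of all). The median log2 fold change was -0.060, beside -0.0049 over all tested peaks, and 57.3% of the 239 values were below 0, against 50.8% of all. In bulk libraries, an opening in fewer cells and a smaller opening in every cell cannot be told apart.

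By position, 0 of 36 tested promoter peaks, 3 of 82 intron peaks and 4 of 118 intergenic peaks were called. Over all tested peaks, 1.76% of promoter, 3.75% of intron and 4.04% of intergenic peaks were. Member promoters were defined by starts of the member gene itself, internal ones included, and all promoters by coding and long non-coding starts. The member classes and the all-peak classes are therefore not fully matched, here and in the promoter shares below. None of the member promoter peaks had an adjusted p-value under 0.05 by edgeR's quasi-likelihood test. At an unadjusted p under 0.05 by that test there were 7 of the 36, against 7100 of all 39607 tested promoter peaks. Over all 150117 tested peaks 31358 had one, the background for the unadjusted counts given below. The DESeq2 Wald test also called 0 of the 36. At 8 of them (22.2%, against 23.9% of all promoter peaks) the libraries did not overlap between conditions. The genes differed in the direction of their peaks. Of the tested peaks, 33 of 44 were below 0 at SEMA3A and 26 of 36 at SEMA3C, whereas 13 of 16 were above 0 at SEMA3F and 4 of 4 at SEMA3G. The median GC content of their peaks was 35.9%, 38.4%, 59.2% and 59.2% in that order. Tested peaks of other genes within 2 Mb had median log2 fold changes of -0.069, -0.016, 0.019 and 0.074 in the same order. The part of GC content or of the surroundings in these directions was not tested.

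**Figure D1:**
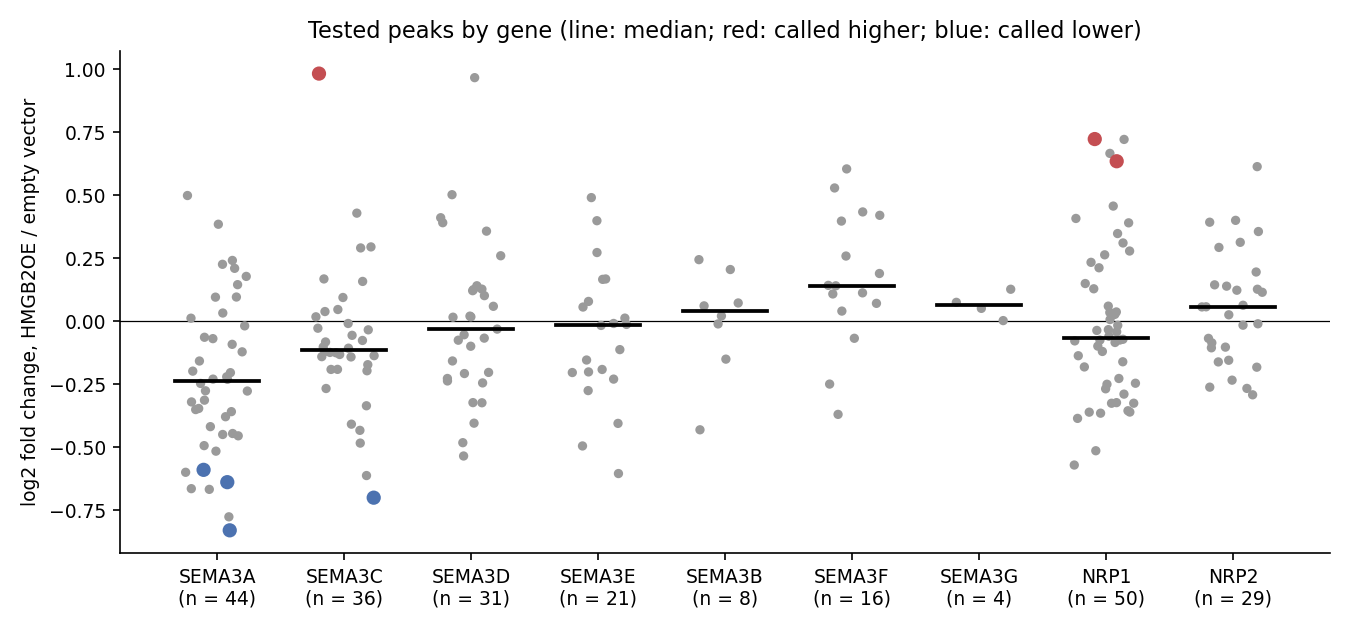
The plot shows the log2 fold change (HMGB2OE over empty vector, y axis) of each of the 239 tested peaks by gene, with a line at the median of the gene, red points for peaks called higher and blue points for peaks called lower. The medians run from -0.24 at SEMA3A to 0.14 at SEMA3F, and the 7 called peaks sit at SEMA3A, SEMA3C and NRP1.

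Among the ligands, SEMA3A, which repels axons and growth cones, had the lowest median and the most lower peaks. Its 44 tested peaks had a median log2 fold change of -0.24, against -0.069 for the 59 tested peaks of other genes within 2 Mb. Of the 44 peaks, 3 were called lower (6.82%, against 1.44% of all) and none higher. With no fold limit, 6 had an adjusted p-value under 0.05 by edgeR (13.6%, against 6.47% of all), all lower (3.03% of all were). The libraries did not overlap at 19 peaks (43.2%, against 25.1% of all). Of the 19, 18 were lower (12.5% of all tested peaks were lower without overlap).

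The largest fall lay in a SEMA3A intron at chr7:84187737-84188238, 6.80 kb downstream of the start of the MANE Select transcript, the reference transcript of the gene. Its normalized counts were 79.2, 97.2 and 74.9 in empty vector libraries 1 to 3 and 39.1, 56.7 and 46.2 in HMGB2OE libraries 1 to 3. All HMGB2OE libraries were below all empty vector libraries. The log2 fold change was -0.83 (SE 0.217, edgeR adjusted p = 0.0184). The adjusted p-value rose to 0.109 without HMGB2OE replicate 1, to 0.0511 without HMGB2OE replicate 3 and to 0.128 without empty vector replicate 2.

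A second intronic peak at chr7:84181681-84182182, 12.9 kb downstream of the same start, had normalized counts of 114, 102 and 98.3 in empty vector and 70.6, 70.9 and 66.4 in HMGB2OE libraries. The groups did not overlap (log2 fold change -0.59, SE 0.178, edgeR adjusted p = 0.0416). This call was close to the threshold and was lost in 11 of 15 alternatives, including each of the 6 that left out a library (adjusted p from 0.0571 to 0.115). The third called peak, at chr7:84688627-84689128, was intergenic and 494 kb upstream. It had 147, 139 and 119 normalized counts in empty vector and 107, 86.7 and 63.0 in HMGB2OE libraries (log2 fold change -0.64, SE 0.177, edgeR adjusted p = 0.0259), and its call was lost in 8 of 15 alternatives, among them the leave-outs of HMGB2OE replicates 2 and 3 and of empty vector replicates 1 and 2 (adjusted p from 0.0717 to 0.132). The sign stayed negative at all 3 peaks in each alternative.

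Stronger SEMA3A intronic peaks fell by less. The peak at chr7:84237499-84238000 went from 660, 742 and 729 normalized counts in empty vector to 543, 513 and 505 in HMGB2OE libraries, with no overlap (log2 fold change -0.45, SE 0.0908, edgeR adjusted p = 0.00258). Peaks at chr7:84412122-84412623 and chr7:84042156-84042657 had log2 fold changes of -0.35 (adjusted p = 0.0319) and -0.32 (adjusted p = 0.0453). All 3 were under the fold limit of 1.5. The peak at 84237499 kept an adjusted p-value under 0.05 in all 15 alternatives, whereas those of the peaks at 84412122 and 84042156 rose as far as 0.144 (without empty vector replicate 2) and 0.281 (without HMGB2OE replicate 1). The strongest SEMA3A peak outside promoters, at chr7:84025265-84025766, stood at 1301 ± 114 in empty vector and 1393 ± 6.04 in HMGB2OE libraries (SD, n = 3), and its log2 fold change of 0.096 did not pass (edgeR adjusted p = 0.533).

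Around the SEMA3A start the values leaned the same way. All 9 tested peaks within 15 kb of the MANE Select start, a window chosen after the values were seen, had log2 fold changes below 0, from -0.83 to -0.064, with a median of -0.28. The peak on that start itself had 307, 324 and 331 normalized counts in empty vector and 305, 331 and 283 in HMGB2OE libraries. These groups overlapped (log2 fold change -0.064, SE 0.110, edgeR adjusted p = 0.795). The strongest SEMA3A promoter peak lay at another annotated start 178 kb upstream, with 1059, 1106 and 986 against 905, 982 and 795. Every HMGB2OE library was below every empty vector library there, yet the log2 fold change of -0.23 did not pass (SE 0.0873, edgeR adjusted p = 0.112).

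GC content moved with these values. The SEMA3A peaks had a median GC content of 35.9%, against 46.2% over all tested peaks. Among all tested peaks under 35% GC the median log2 fold change was -0.15 and 4.54% were called lower, and from 35 to 40% GC the median was -0.061. The 15 SEMA3A peaks under 35% had a median of -0.42, and the 18 from 35 to 40% had -0.30. With offsets fitted to GC content, the median over SEMA3A peaks was -0.20, and none of the 3 peaks was still called, with log2 fold changes of -0.68 at 84187737, -0.50 at 84181681 and -0.48 at 84688627. With GC offsets and the replicate block together, the peak at 84187737 was called (-0.67, adjusted p = 0.046). With values centred in windows of 10 Mb, the median was -0.18. The part of GC content in the fall was not tested beyond these values.

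**Figure D2:**
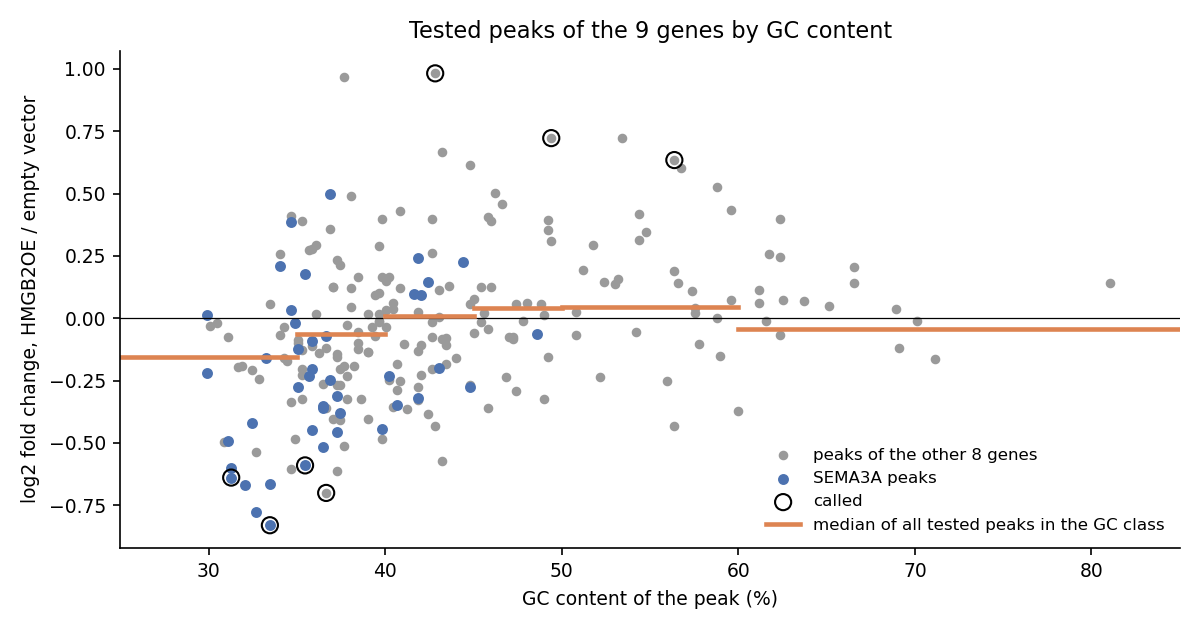
The plot sets the log2 fold change (HMGB2OE over empty vector, y axis) of the 239 tested peaks against the GC content of the peak in percent (x axis), with SEMA3A peaks coloured, called peaks ringed and orange bars at the median of all tested peaks in a GC class. All-peak medians lie at -0.15 under 35% GC and at 0.043 from 50 to 60%, and the SEMA3A medians of -0.42 and -0.30 lie below the bars of the 2 lowest classes.

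SEMA3C, a ligand linked to vessel and heart outflow tract development, had a called peak in each direction. Each was 2.78% of its 36 tested peaks, against 1.87% called higher and 1.44% called lower over all tested peaks. In an intron at chr7:80781489-80781990, 137 kb downstream of the start, normalized counts were 38.9, 40.4 and 49.1 in empty vector and 96.9, 75.9 and 81.1 in HMGB2OE libraries. This was the largest rise among the called peaks of the 9 genes and the groups did not overlap (log2 fold change 0.98, SE 0.217, edgeR adjusted p = 0.00555). Without HMGB2OE replicate 1 the log2 fold change was 0.87 and the adjusted p-value 0.0551, the only lost call in 15 alternatives.

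The other SEMA3C peak, at chr7:81112749-81113250, lay 194 kb upstream in intergenic sequence. Its normalized counts were 228, 236 and 231 in empty vector and 153, 154 and 117 in HMGB2OE libraries. All HMGB2OE libraries were lower (log2 fold change -0.70, SE 0.134, edgeR adjusted p = 0.00153), and the call held in all 15 alternatives. The other 34 tested SEMA3C peaks were not called, and the median over the 36 was -0.11. The strongest peak outside its promoters, 196 kb downstream, stood at 1509 ± 137 and 1379 ± 104 (SD, n = 3) with overlapping libraries (log2 fold change -0.13, edgeR adjusted p = 0.376).

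SEMA3A, SEMA3C, SEMA3D and SEMA3E lie together on chromosome 7, between 80742538 and 85187056. SEMA3D, a guidance cue of neural crest and vessels, had 0 of 31 peaks called by edgeR or DESeq2, 5 with an unadjusted p under 0.05, and a median log2 fold change of -0.032. A single intronic peak of it passed with no fold limit, at chr7:85103315-85103816, with 304, 290 and 303 normalized counts in empty vector and 211, 234 and 233 in HMGB2OE libraries (log2 fold change -0.41, SE 0.114, edgeR adjusted p = 0.0289). SEMA3E had 0 of 21 called by either tool, 4 with an unadjusted p under 0.05, and a median of -0.017. An intronic SEMA3E peak at chr7:83438859-83439360 went the other way, with 195, 193 and 164 against 247, 234 and 297 (log2 fold change 0.49, SE 0.129, edgeR adjusted p = 0.0187). At both peaks the groups did not overlap. Over the alternatives their adjusted p-values rose as far as 0.150 at the SEMA3D peak (without HMGB2OE replicate 1) and 0.105 at the SEMA3E peak (without HMGB2OE replicate 3). The strongest peaks outside promoters had log2 fold changes of -0.23 at SEMA3D (edgeR adjusted p = 0.191) and -0.013 at SEMA3E (adjusted p = 0.949).

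Within that stretch of chromosome 7, the 112 tested peaks of the 4 genes had a median log2 fold change of -0.12. The 72 tested peaks of other genes there had a median of -0.052, with 1 called higher and 4 called lower.

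**Figure D3:**
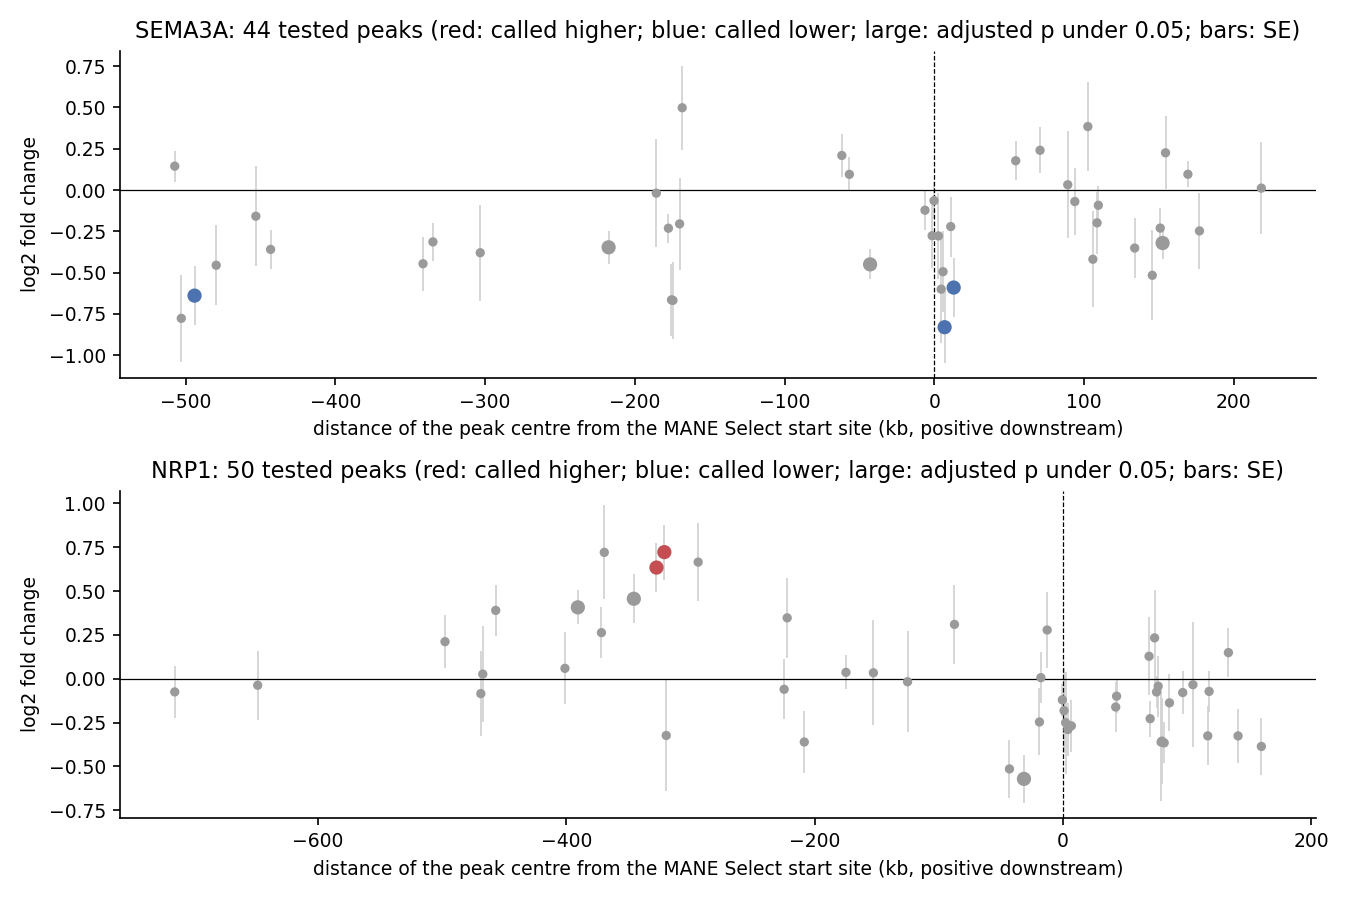
The panels show the log2 fold change of each tested peak (y axis, bars are SE) against the distance of its centre from the MANE Select start in kb (x axis, positive downstream), with called peaks in red or blue and larger points for an adjusted p-value under 0.05. At SEMA3A the peaks with small adjusted p-values are all below 0, and at NRP1 both called peaks lie over 300 kb upstream.

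SEMA3B, SEMA3F and SEMA3G lie on chromosome 3, and none of their 28 tested peaks was called by edgeR or DESeq2, with 6 at an unadjusted p under 0.05. SEMA3F, which signals mainly through NRP2, had the highest median of the 9 genes, 0.14, with 13 of 16 peaks above 0. An intergenic peak 18.4 kb upstream, at chr3:50136643-50137144 in the body of a long non-coding RNA gene, had 131, 151 and 140 normalized counts in empty vector and 218, 183 and 212 in HMGB2OE libraries. The groups did not overlap and the adjusted p-value passed, with a fold change just under the limit (log2 fold change 0.53, SE 0.135, edgeR adjusted p = 0.0154). It passed the fold limit without HMGB2OE replicate 2 (0.60) and without empty vector replicate 2 (0.59), but its adjusted p-value missed the threshold without HMGB2OE replicate 1 (0.48, adjusted p = 0.0922) and without empty vector replicate 1 (0.48, adjusted p = 0.0525). The SEMA3F promoter peak stood at 985, 1048 and 1019 against 1114, 1173 and 1082. These groups did not overlap either, but the log2 fold change of 0.14 did not pass (SE 0.0794, edgeR adjusted p = 0.316).

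SEMA3B had medians near 0 (0.040 over 8 peaks), as had SEMA3G (0.063 over 4 peaks). The strongest SEMA3B peak outside promoters, 8.43 kb upstream, went from 1529 ± 218 to 1766 ± 145 (SD, n = 3), and its groups overlapped (log2 fold change 0.20, edgeR adjusted p = 0.173). The SEMA3G log2 fold changes ran from 0.0020 to 0.13, with 0.13 at its strongest peak outside promoters (edgeR adjusted p = 0.599), and the strongest such SEMA3F peak had 0.11 (adjusted p = 0.696).

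Among the receptors, both called peaks lay at NRP1 and both were higher (2 of 50 tested NRP1 peaks, 4.0%, against 1.87% of all). The first, at chr10:33655438-33655939, lay 321 kb upstream of the NRP1 start, outside protein-coding and long non-coding genes. Its normalized counts were 93.1, 102 and 80.7 in empty vector and 145, 145 and 169 in HMGB2OE libraries. All HMGB2OE libraries were higher (log2 fold change 0.72, SE 0.157, edgeR adjusted p = 0.0047), and the call held in all 15 alternatives.

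The second, at chr10:33661786-33662287, lay 327 kb upstream, with 122, 114 and 130 normalized counts in empty vector and 182, 199 and 187 in HMGB2OE libraries. Again the groups did not overlap (log2 fold change 0.63, SE 0.137, edgeR adjusted p = 0.00465). Its fold change dropped below the limit in 3 of 15 alternatives, to log2 values of 0.58 with GC offsets, with or without the replicate block, and 0.58 without empty vector replicate 2, where the adjusted p-value was at most 0.0348.

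Farther upstream, 2 NRP1 peaks passed with no fold limit. At chr10:33680025-33680526 the counts were 132, 151 and 138 against 218, 169 and 193 (log2 fold change 0.46, SE 0.139, edgeR adjusted p = 0.0433). At chr10:33725117-33725618, a stronger peak 391 kb upstream, they were 618, 836 and 783 against 1091, 961 and 928 (log2 fold change 0.41, SE 0.0972, edgeR adjusted p = 0.00972). Each had its HMGB2OE libraries above its empty vector libraries. Over the alternatives their adjusted p-values rose as far as 0.238 and 0.100. Over the 14 tested peaks more than 300 kb upstream, a limit chosen after the values were seen, 10 were above 0, the median was 0.24, and 7 did not overlap, all of them higher (12.6% of all tested peaks had every HMGB2OE library above every empty vector library).

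The body of NRP1 did not share that direction. Of its 22 tested peaks 19 were below 0, with a median of -0.15, and none had an adjusted p-value under 0.05 by edgeR (3 had an unadjusted one, and DESeq2 called 0). A strong intergenic peak 31.4 kb upstream of the start, at chr10:33365780-33366281, fell with 334, 404 and 310 against 276, 254 and 172 (log2 fold change -0.57, SE 0.137, edgeR adjusted p = 0.0104). This was just under the fold limit, and the peak was called lower with GC offsets (-0.59), with the replicate block (-0.59) and, among others, without HMGB2OE replicate 1 (-0.70). It no longer passed at any fold without HMGB2OE replicate 3 (-0.40, adjusted p = 0.068) or without empty vector replicate 2 (-0.44, adjusted p = 0.0934). The NRP1 promoter peak stood at 832 ± 53.4 and 765 ± 80.0 (SD, n = 3) with overlapping libraries (log2 fold change -0.12, edgeR adjusted p = 0.482), and the strongest peak outside promoters, in an intron, at 980 ± 86.9 and 930 ± 92.1 (log2 fold change -0.075, edgeR adjusted p = 0.685). The 1 untested peak of the family, at chr10:33516090-33516591, had 7, 9 and 3 raw reads in empty vector and 6, 7 and 5 in HMGB2OE libraries.

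NRP2, the receptor with a preference for SEMA3F and for VEGF-C, had no peak with an adjusted p-value under 0.05 by edgeR among 29, 6 with an unadjusted p under 0.05, none called by DESeq2, and a median log2 fold change of 0.056. Its strongest peak outside promoters, 31.9 kb upstream, had 787, 958 and 945 normalized counts in empty vector and 1059, 946 and 1084 in HMGB2OE libraries, and the groups overlapped (log2 fold change 0.19, SE 0.0887, edgeR adjusted p = 0.200).

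**Figure D4:**
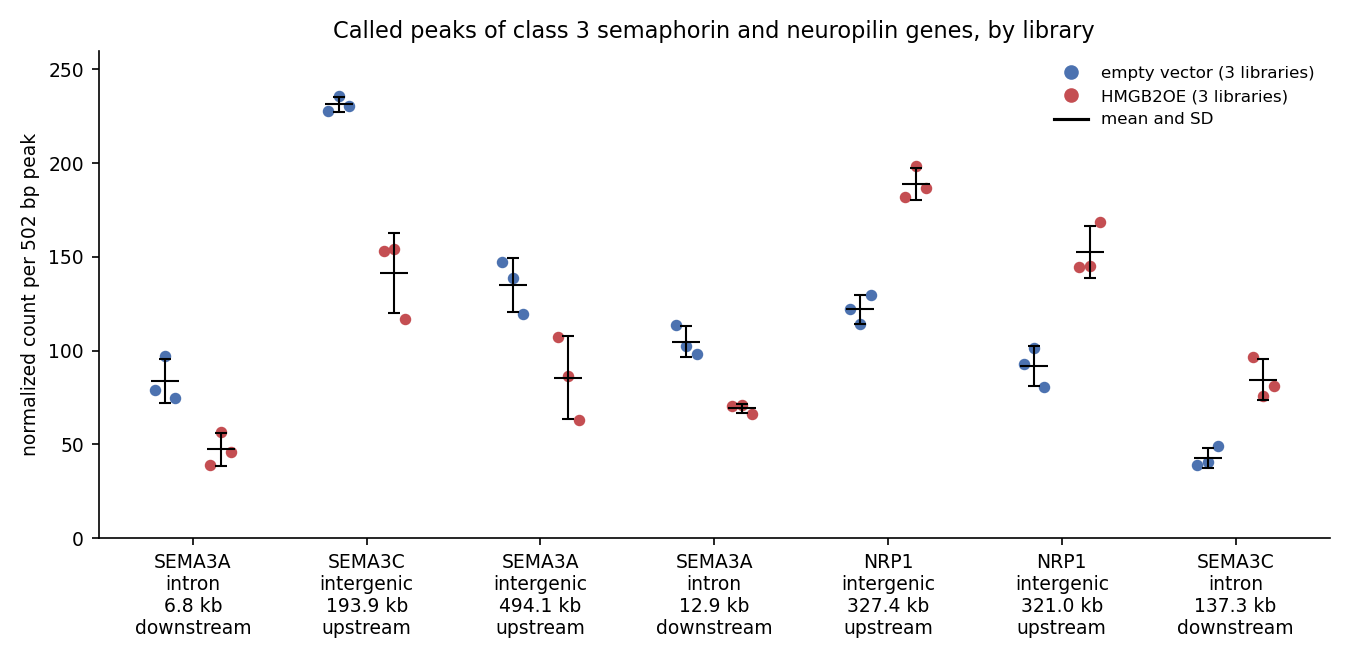
The plot gives the normalized count per 502 bp peak (y axis) of the 7 called peaks in each of the 3 empty vector and 3 HMGB2OE libraries, with lines at group means. The groups do not overlap at any of the 7, and the strongest is the SEMA3C upstream peak, at 228 to 236 in empty vector and 117 to 154 in HMGB2OE libraries.

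The strongest promoter peak of each gene covered 502 bp, and the counts were set side by side. They were scaled by library only, with no correction for the copy number or GC content of a locus. GC content ran from 40.2% at the SEMA3A peak to 81.1% at the SEMA3F peak. In empty vector libraries the order was SEMA3C (1748 ± 21.9 normalized counts, SD, n = 3), SEMA3B (1111 ± 145), SEMA3A (1050 ± 60.04), SEMA3F (1018 ± 31.3), NRP2 (890 ± 36.4), NRP1 (832 ± 53.4), SEMA3D (686 ± 76.1), SEMA3G (391 ± 20.3) and SEMA3E (384 ± 28.7). The ranges of neighbours overlapped between SEMA3B and SEMA3A, SEMA3A and SEMA3F, NRP2 and NRP1, and SEMA3G and SEMA3E. The SEMA3A peak in this order lay 178 kb upstream of its MANE Select start, whereas those of the other genes lay at most 0.434 kb from theirs. On its MANE Select start, SEMA3A had 321 ± 12.3 normalized counts in empty vector libraries, below the 384 of SEMA3E. All 9 genes had an accessible promoter peak in these cells, ranking between percentiles 65.1 and 96.8 of tested promoter peaks. Each was the strongest promoter peak of its gene but was ranked against every tested promoter peak, not only the strongest of each gene. A high percentile is therefore partly set by that choice. The log2 fold changes of the 9 peaks lay between -0.23 and 0.14, and none passed the test.

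**Figure D5:**
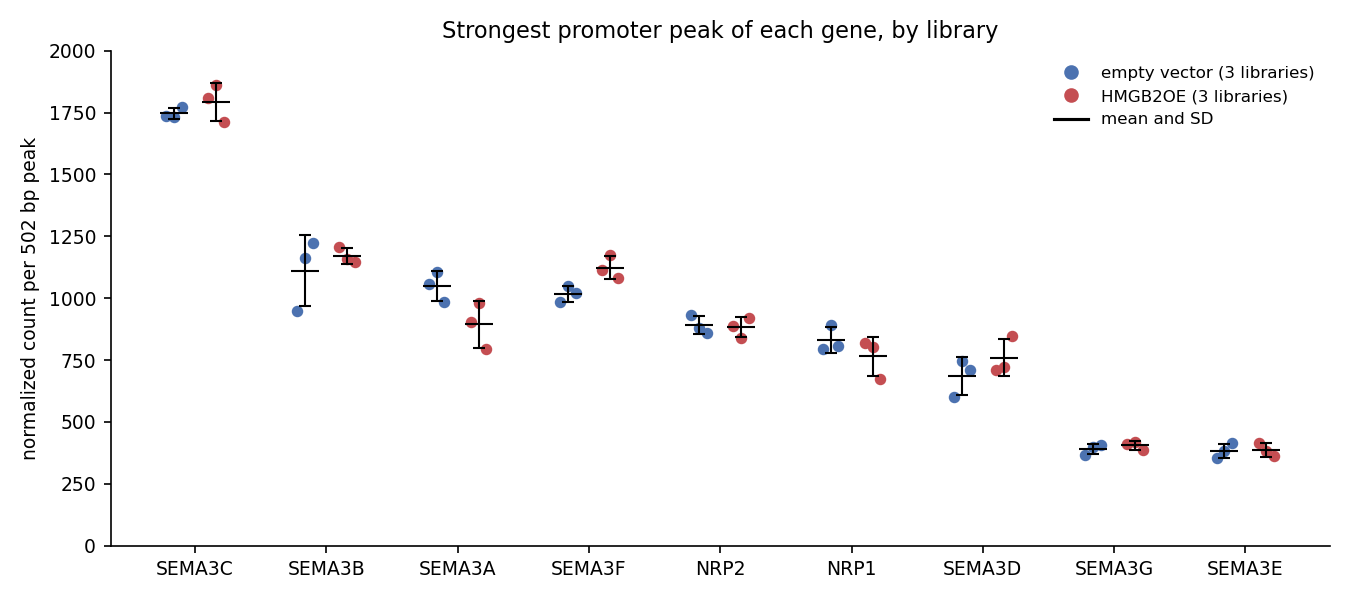
The plot gives the normalized count per 502 bp peak (y axis) of the strongest promoter peak of each gene in each library, with lines at group means. The SEMA3A peak is the one 178 kb upstream of its MANE Select start. Levels run from about 384 at SEMA3E to 1748 at SEMA3C in empty vector libraries, and the groups are apart at SEMA3A (lower in HMGB2OE) and SEMA3F (higher), where the adjusted p-values were 0.112 and 0.316.

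Counts summed over all peaks of a gene gave 1 value per locus. By edgeR's quasi-likelihood test over 18348 genes, 1 of the 9 members had an adjusted p-value under 0.05, against 9.28% of all genes (5.83% higher, 3.45% lower). That gene was SEMA3F, with summed normalized counts of 2324, 2280 and 2425 in empty vector and 2614, 2693 and 2780 in HMGB2OE libraries. All HMGB2OE libraries were higher (log2 fold change 0.20, SE 0.0446, adjusted p = 0.00884). Leaving out empty vector replicate 2 gave 0.18 with an adjusted p-value of 0.078, no longer past the threshold.

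SEMA3A sums were 9649, 9633 and 9381 in empty vector and 8835, 8999 and 8599 in HMGB2OE libraries. The groups did not overlap, and the log2 fold change of -0.12 just missed the threshold (SE 0.0365, edgeR adjusted p = 0.0515). Under 6 alternatives the sum did pass, with adjusted p-values from 0.0148 by the DESeq2 Wald test to 0.0499 with DESeq2 size factors. SEMA3B had a log2 fold change of 0.13 (edgeR adjusted p = 0.163), which passed without empty vector replicate 3 (0.20, adjusted p = 0.0205), and SEMA3G of 0.093 (adjusted p = 0.341). The sums of SEMA3C, SEMA3D, SEMA3E, NRP1 and NRP2 lay between -0.052 and 0.057. The NRP1 sum had a log2 fold change of 0.014. It combined the higher distant peaks with the lower peak 31.4 kb upstream and the gene body, where 19 of 22 tested peaks were below 0.

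The genes whose summed counts tracked SEMA3F most closely over the 6 libraries, among 4963 genes with at least 10 tested peaks, were TSKU (Pearson r = 0.996), NRCAM (0.995), EPHB6 (0.993), DYSF (0.991) and GDF6 (0.989). With only 6 libraries, which separate by condition along the first principal component, this is a description only.

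The signalling partners of the family were examined next. The class A plexins and PLXND1, which carry class 3 semaphorin signals into the cell, had 8 of 105 tested peaks called higher (7.62%, against 1.87% of all) and 1 lower (0.952%, against 1.44%), with a median log2 fold change of 0.17. The higher peaks belonged to PLXNA2 (4), PLXNA4 (3) and PLXNA1 (1), and their number lay between 6 and 12 over the alternatives. In a PLXNA2 intron, 12.3 kb downstream of the start, normalized counts were 131, 151 and 197 in empty vector and 315, 288 and 319 in HMGB2OE libraries (log2 fold change 0.94, SE 0.133, edgeR adjusted p = 6.2e-05). In a PLXNA4 intron they were 57.0, 78.3 and 108 against 155, 176 and 209 (log2 fold change 1.13, SE 0.178, edgeR adjusted p = 0.000196). At both peaks every HMGB2OE library was above every empty vector library.

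The called PLXNA1 peak lay 10.9 kb upstream (log2 fold change 0.90, SE 0.246, edgeR adjusted p = 0.0245). An intergenic PLXNA4 peak was the lower one (log2 fold change -0.65, SE 0.181, edgeR adjusted p = 0.0266). Summed counts were higher for PLXNA2 (0.16, adjusted p = 0.0182) and PLXNA4 (0.22, adjusted p = 0.0042), both on the log2 scale. The strongest promoter peaks of the 5 genes, counting internal starts, had log2 fold changes from 0.036 at PLXNA1 to 0.40 at PLXNA3, with adjusted p-values of at least 0.0831. None of the 15 PLXND1 peaks was called by edgeR.

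The 4 other plexins had 0 of 34 peaks called by edgeR or DESeq2, while 2 of the 34 had an adjusted and 6 an unadjusted p-value under 0.05. Their summed counts were higher for PLXNB1 (log2 fold change 0.18, edgeR adjusted p = 0.0391) and PLXNC1 (0.15, adjusted p = 0.0244). Semaphorins of other classes, which are mostly membrane-bound, had 10 of 199 called higher (5.03%) and 1 lower (0.503%), with a median log2 fold change of 0.065. SEMA6D led with 3 higher peaks, among them its start site (209, 149 and 202 normalized counts in empty vector, 249, 291 and 304 in HMGB2OE libraries, log2 fold change 0.61, SE 0.134, edgeR adjusted p = 0.0055). SEMA6A had 2 higher peaks, the larger with a log2 fold change of 1.10, and SEMA4D 1 in each direction. Sums were higher for SEMA6D (log2 fold change 0.38, edgeR adjusted p = 0.00177) and SEMA5B (0.20, adjusted p = 0.0372). The number of higher peaks in this list ranged from 4 to 12 over the alternatives, with 4 without HMGB2OE replicate 1 and 4 without empty vector replicate 2.

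Adhesion co-receptors and intracellular effectors, such as collapsin response mediator proteins and MICAL enzymes, had 5 of 323 peaks called higher (1.55%) and 5 lower (1.55%), close to the shares over all peaks. With a library left out these counts ranged from 5 to 9 and from 1 to 6. FARP1 had 2 higher peaks, MICAL2 1 in each direction, and DPYSL2 1 higher peak with a log2 fold change of 1.03 (SE 0.211, edgeR adjusted p = 0.00295). The call with the smallest adjusted p-value in this list, named after its value was seen, was a lower peak of CRMP1, a collapsin response mediator, that also lies in the overlapping gene EVC (log2 fold change -0.76, SE 0.105, edgeR adjusted p = 4.67e-05). Both sums of the list that passed were lower, CRMP1 by a log2 fold change of -0.26 (edgeR adjusted p = 0.00378) and the adhesion molecule CHL1 by -0.15 (adjusted p = 0.0395). Each sum includes the called lower peak of its gene, at CRMP1 the peak shared with EVC, and so is not a separate result. The median log2 fold change over tested peaks was -0.14 at CRMP1 and -0.19 at CHL1. VEGF ligands and receptors had 1 of 98 called higher (1.02%) and 2 lower (2.04%), with 1 to 3 higher and 0 to 3 lower when a library was left out. The higher peak was assigned to VEGFA, 109 kb downstream of its start (202, 250 and 261 against 386, 380 and 437 normalized counts, log2 fold change 0.75, SE 0.117, edgeR adjusted p = 0.000188). Both lower peaks belonged to KDR, the main VEGF receptor of endothelium, with log2 fold changes of -0.75 and -0.61 (adjusted p = 0.0226 and 0.0041).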

How the data were processed

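ATAC-seq libraries of A375 cells (3 empty vector, 3 HMGB2OE) were grouped by their labels. Per the study's methods and the submitters' processing notes, the authors used Trim Galore 0.6.7 and cutadapt 4.0 for trimming, Bowtie 2 for alignment to hg38 and Picard for deduplication. Peaks came from MACS2 with a public set of melanocyte reads as control, and after removal of blacklisted regions nearby peaks were merged into an atlas shared by all libraries. Whether cuts were shifted for Tn5, and whether peaks were called per library, is not given in the sources used here. The authors deposited raw featureCounts counts per peak, not normalized and not pooled.

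Here, edgeR 4.0.16 (R 4.3.3) was used with TMM factors (0.975 to 1.02), the filterByExpr filter and, on the 150117 peaks kept, a quasi-likelihood F test with condition as the sole term and Benjamini-Hochberg adjustment. SEs were derived from the F statistic. Normalized counts are counts over effective library size times the mean effective size. Totals of 26910189 to 45645294 counts set the precision of weak peaks. On simulated data with 200 peaks moved by 1 on the log2 scale, edgeR recovered 81%, with 5 false calls among 150026. For gene sums it recovered 99% of 200, with 8 false calls among 18347. The simulation used a fixed dispersion not estimated from these libraries and no GC differences. Changes were planted only above a minimum mean count, so these rates need not hold for the real libraries or for weak peaks. Replicates of a condition differed by more than sampling noise, so each counted separately.

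Peaks were annotated with GENCODE release 44. Over all peaks, promoter meant within 3 kb of the start of a coding or long non-coding transcript. For member peaks it meant within 3 kb of the start of any annotated transcript of that member gene, internal starts included. Distances run from MANE Select starts, and motif words were counted on both strands of hg38. Gene sums add all peaks assigned to a protein-coding gene. For each member the text names the strongest promoter peak, every called peak and the strongest other peak, and other peaks with an adjusted p-value under 0.05 were named after their values were seen. In each of the 5 pathway lists at most 3 genes with most calls are named, apart from the plexins of the class 3 pathway, all named. Members, lists and markers were chosen with earlier results of these data known. No paired fit was the main one because replicate numbers do not pair the libraries. Alternatives were other scalings (library size, DESeq2 size factors, GC offsets, 10 Mb window centring), the DESeq2 1.42.0 Wald test, no filter or at least 10 counts in every library, a replicate block, other fold limits, giving every peak to its nearest start site, and leaving out each library.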

Additional observations from a re-analysis of the deposited data

How the results depend on the processing

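Of the 7 called peaks, 2 kept their call in all 15 alternatives, the NRP1 peak at 33655438 and the SEMA3C peak at 81112749. The number kept was 3 with GC offsets, 4 with GC offsets and the replicate block, and 3 to 6 when a library was left out (3 without empty vector replicate 2). Peaks called higher numbered 5 with 10 Mb windows, 7 with a fold limit midway between 1 and 1.5, 7 with none, 6 with the replicate block and 2 to 6 on leaving out a library (6 without empty vector replicate 3). Peaks called lower numbered 2 each with 10 Mb windows, the DESeq2 Wald test and GC offsets, 8 with that lower fold limit and 9 with none, and 1 to 5 on leaving out a library (1 without HMGB2OE replicate 3 and 1 without empty vector replicate 2). Member gene sums past the threshold numbered 2 with 10 Mb windows, the DESeq2 Wald test, DESeq2 size factors, library size only, assignment to the nearest start, the replicate block, and the block with GC offsets, and 0 to 2 on leaving out a library (0 without empty vector replicate 2, 2 without empty vector replicate 3). The cause of these shifts was not tested.

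Values near 0 that had not passed changed sign. The NRP1 sum (main value 0.014) was -0.0076 with 10 Mb windows, and the SEMA3D sum (0.0094) was -0.00044 with library size only. The NRP2 promoter (-0.011) was 0.042 with GC offsets, 0.039 with the block added and 0.0088 with library size only. The SEMA3E promoter (0.012) was -0.040 and -0.042 in the same pair of GC fits. The SEMA3E peak at 83677164 (-0.013) was 0.047 with 10 Mb windows and 0.0077 with library size only. With a library left out, ranges were -0.0050 to 0.051 (NRP1 sum), -0.017 to 0.032 (SEMA3D sum), -0.040 to 0.025 (NRP2 promoter), -0.024 to 0.14 (SEMA3B promoter), -0.046 to 0.065 (SEMA3E promoter), -0.060 to 0.036 (SEMA3E at 83677164), -0.14 to 0.0011 (NRP1 at 33259001) and -0.0033 to 0.24 (SEMA3F at 50126343).

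Deviations of same-numbered libraries from their group means correlated at -0.089, 0.18 and 0.13, so the numbers were not taken as pairing. The replicate block moved the calls as given above. Depth limits weak peaks. At a log2 fold change of 1 the simulated recovery was 81%, under a fixed dispersion and only for peaks above a minimum mean count.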
